A study of Oryza sativa with 6 samples.

Results

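Rice takes up potassium and metals through families of membrane proteins, and 58 genes of 9 such families were followed here in roots given a yeast. They were taken by a rule on names among 14662 genes measured, and the families were chosen with earlier results of these data known. The rule asked for a probe set annotated to exactly 1 gene. The gene's symbol or RefSeq synonym had to be HAK, AKT, HKT, YSL, NRAMP, ZIP, IRT, MTP or HMA with a number. Where a gene had several probe sets, the one with the highest mean over all arrays was kept, and bZIP transcription factors were left out. The potassium carriers came to 23 genes, of which 21 were HAK genes, 1 was OsAKT1 and 1 was OsHKT1;5. OsHKT1;5 is described below as a sodium transporter and was placed in this group, and in all its counts, by its family name. The metal carriers came to 35 genes, with 14 of the YSL family, 8 ZIP, 6 NRAMP, 3 MTP, 2 IRT and 2 HMA genes. A further 21 genes with such names, OsHAK16, OsHAK19, OsZIP4 and HMA2 among them, were not analysed here.

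As background, potassium enters root cells through channels of the AKT kind, which carry the ion down its electrical gradient, and through HAK transporters, which can take it up against a steep gradient when the soil holds little. HKT proteins carry sodium or sodium with potassium and are known in rice for salt tolerance. Iron reaches grasses by a pair of routes: as free ferrous iron through IRT proteins, and as iron bound to mugineic acid compounds, which roots release and YSL proteins take back in. NRAMP proteins carry manganese, iron and cadmium, ZIP proteins carry mainly zinc, MTP proteins move zinc or manganese out of the cytosol, and HMA proteins are pumps for copper, zinc or cadmium.

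All roots came from rice plants of the cultivar Swarna MTU7029, aged 3 weeks and grown without treatment until a yeast of the basidiomycetes, Rhodotorula mucilaginosa JGTA-S1, was added as a suspension of cells. The control was root tissue taken at 0 h, with no treatment, and the rest was collected 6 h and 24 h later. Each time had 2 Affymetrix arrays, 6 in all, and nothing in the labels ties the arrays of one time to separate plants or pools. The spread behind each p-value may then be technical, as it is only that between these samples. Untreated roots of 6 h or 24 h are not among the samples, so that yeast and elapsed time cannot be told apart.

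Signals are the authors' deposited values on a log scale, read as log2, and their number limits the precision. A difference of 1 is then a fold of 2. Differences were tested with limma over all 41770 probe sets, and passed means a Benjamini-Hochberg adjusted p under 0.05. Errors written with ± are standard errors of that fit. Signals of different probe sets were set against each other only to pick genes, to place signals within their array and to sum marker lists. In whole roots, fewer cells of a type and less RNA per cell cannot be told apart.

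The arrays did not all resemble their own group most. Over all probe sets the 0 h arrays correlated with each other at 0.868, no more closely than the first of them did with the 24 h arrays, at 0.880 and 0.888. The first 6 h array correlated at 0.978 with the first 24 h array and at 0.936 with the second 6 h array. Signals were also less spread at 0 h, where the SD over probe sets was 1.50 and 1.46, against 1.82 and 1.62 at 6 h and 1.79 and 1.75 at 24 h. Among 11 measured root markers, 0 passed at either time, and their summed linear signal was 1206 and 1305 at 0 h, 1463 and 1577 at 6 h and 1218 and 1415 at 24 h. Their log2 differences at 6 h were above 0 for 10 of 11, beside 46.0% of all probe sets and 60.9% of those with 1 gene. The median of these markers was 0.63, which was 0.16 with quantile normalization and 0.14 with cyclic loess. Of 7 green shoot markers, LTD fell at 24 h by 1.70 (limma, adjusted p = 0.0395). Both of its 24 h signals, 1.52 and 1.51, lay under their array's lower quartile. The list's summed signal ran from 84 to 116 at 24 h against 92 to 132 at 0 h and 61 to 90 at 6 h. The part of this spread or of these markers in the results on the transporters was not tested.

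Against 0 h, 1 of the 58 genes passed. OsNramp3 rose at 24 h, and 0 genes passed at 6 h or between 6 h and 24 h. Over all probe sets, 1.53% passed at 6 h, 2.21% at 24 h and 0% between the later times; among the probe sets with 1 gene these shares were 2.19%, 3.06% and 0%. At an unadjusted p under 0.05 from the same fit, 11 of the 58 genes stood out at 6 h (7 higher and 4 lower), 10 at 24 h (8 higher and 2 lower) and 4 between the later times (1 higher and 3 lower). The same rule called 19.2%, 21.5% and 2.63% of all probe sets and 23.1%, 25.8% and 3.27% of those with 1 gene. At 6 h and 24 h the shares of the 58 genes were 19.0% and 17.2%, no higher than these. Between the later times the share was 6.9%, from OsAKT1, OsHAK1, OsHAK5 and OsHAK22, of which OsHAK1 alone was not already singled out for description with results of these data known.

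**Figure D1:**
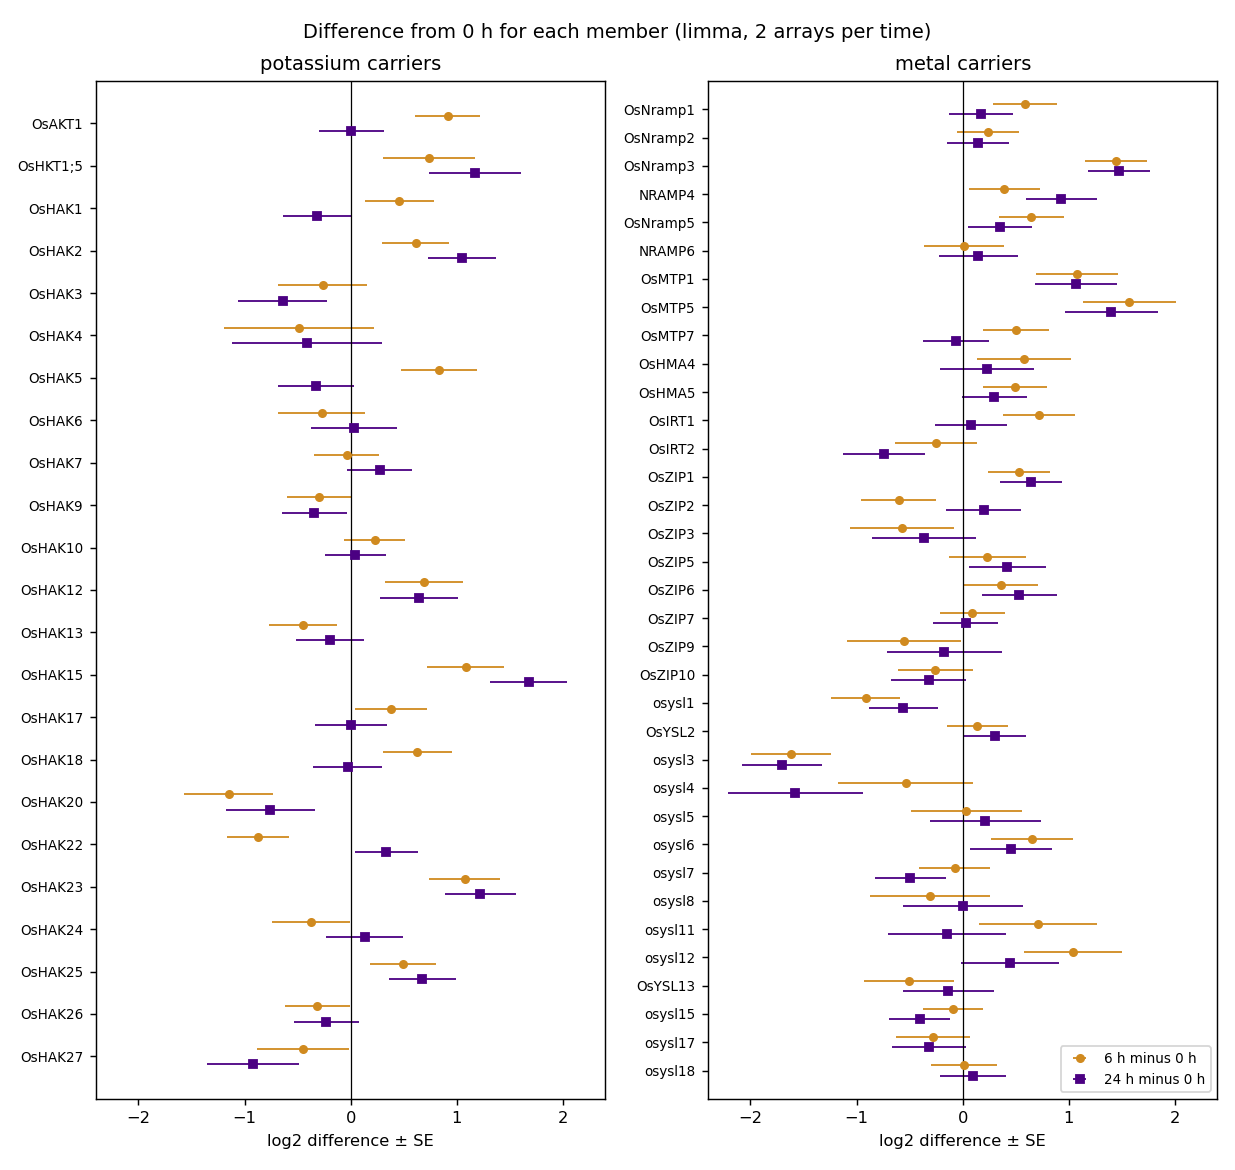
Log2 differences from 0 h of the 58 transporter genes at 6 h and at 24 h, with points for the fitted difference and bars for its standard error, potassium and metal carriers apart. OsMTP5 at 1.57 (6 h) and OsHAK15 at 1.68 (24 h) lie furthest to the right, osysl3 at -1.62 and -1.70 furthest to the left, and OsNramp3 at 24 h passed.

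Among the potassium carriers, 0 of 23 passed in any comparison. OsAKT1 (gene 4326245) encodes the inward potassium channel that carries much of the potassium taken up by rice roots. Its signals were 6.64 and 6.69 at 0 h, 7.75 and 7.40 at 6 h and 6.50 and 6.84 at 24 h. Both 6 h arrays thus lay above all 4 others, and the 24 h arrays lay on either side of the controls. The difference from 0 h was 0.92 ± 0.31 at 6 h (limma, adjusted p = 0.162) and 0.01 ± 0.31 at 24 h (adjusted p = 0.992). In the deposited values the 24 h difference had a 95% interval from -0.70 to 0.71, which leaves out a doubling or a halving. Quantile normalization gave 0.51 at 6 h and -0.48 at 24 h, and cyclic loess 0.45 and -0.49. From 6 h to 24 h the difference was -0.91 ± 0.31, with an adjusted p of 1 and an unadjusted p of 0.0177 in limma's fit.

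OsHAK5 (gene 4326945), a transporter for potassium uptake and its delivery to the shoot when potassium is scarce, gave 1.48 and 2.06 at 0 h, 2.30 and 2.90 at 6 h and 1.29 and 1.60 at 24 h. Both 6 h arrays were the highest of the 6, yet 4 of its 6 signals lay below their array's lower quartile. The difference was 0.83 ± 0.36 at 6 h (limma, adjusted p = 0.258) and -0.33 ± 0.36 at 24 h (adjusted p = 0.624). The 24 h value changed sign, to 0.06, after cyclic loess. From 6 h to 24 h it was -1.16 ± 0.36, at an unadjusted p of 0.0119 and an adjusted p of 1 in limma's fit.

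OsHAK22 (gene 4342173), a member of the same family, gave 2.92 and 3.07 at 0 h, 2.18 and 2.07 at 6 h and 3.19 and 3.48 at 24 h. Both 6 h arrays lay below both controls and both 24 h arrays above them. The differences from 0 h were -0.87 ± 0.29 at 6 h (limma, adjusted p = 0.164) and 0.34 ± 0.29 at 24 h (adjusted p = 0.536). Between the later times the difference was 1.21 ± 0.29, the highest of the 58 genes, with an unadjusted p of 0.00325 in limma's fit and an adjusted p of 1.

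**Figure D2:**
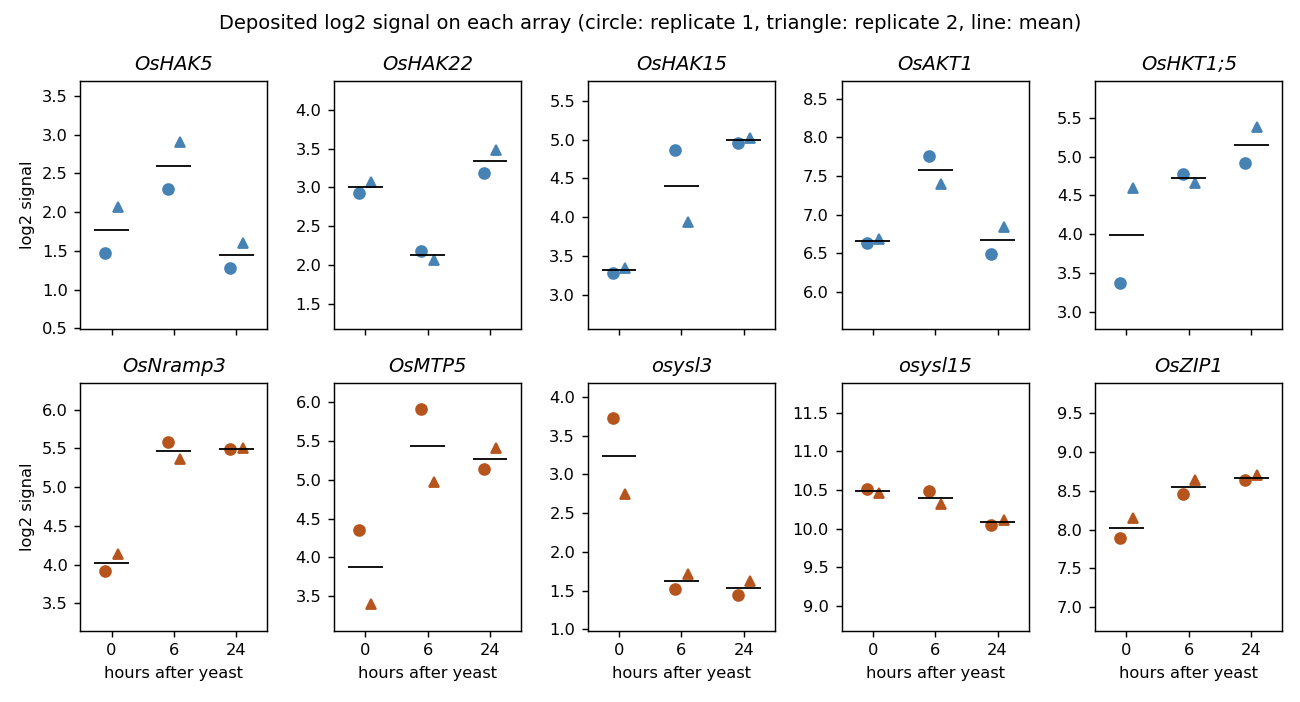
Deposited log2 signal of 10 transporter genes on each array at 0 h, 6 h and 24 h, with 1 point per array and every panel spanning the same height. OsAKT1 and OsHAK5 were highest at 6 h and OsHAK22 lowest there, and both later pairs of OsNramp3 points lie above both 0 h points.

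OsHAK15 (gene 4336950) had the highest difference from 0 h at 24 h of all 58 genes. Its signals were 3.28 and 3.35 at 0 h, 4.87 and 3.93 at 6 h and 4.96 and 5.03 at 24 h. All 4 arrays after the yeast lay above both controls, and the 6 h arrays were 0.94 apart. The difference was 1.08 ± 0.37 at 6 h (limma, adjusted p = 0.166) and 1.68 ± 0.37 at 24 h (adjusted p = 0.0580). At 24 h it passed in 3 of 15 alternative settings and ranged over them from 1.07 to 1.75, the lowest after cyclic loess.

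OsHKT1;5 (gene 4327757) encodes the sodium transporter that draws sodium out of the xylem of rice roots. It gave 3.37 and 4.60 at 0 h, 4.77 and 4.66 at 6 h and 4.92 and 5.38 at 24 h. The controls were 1.23 apart, and all 4 later arrays lay above both. The difference was 0.74 ± 0.43 at 6 h (limma, adjusted p = 0.389) and 1.17 ± 0.43 at 24 h (adjusted p = 0.176). The 24 h difference was 0.56 without the first 0 h array (adjusted p = 0.369) and 1.78 without the second (adjusted p = 0.0471). Each of these fits has 1 control array left, which is assumed to vary like the arrays of the other times, as in every fit without a 0 h array. Quantile normalization gave 0.65 and cyclic loess 0.49.

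OsHAK7 (gene 4344235), described as the HAK probe set with the highest mean, read 7.97 and 7.80 at 0 h, 8.05 and 7.65 at 6 h and 8.24 and 8.08 at 24 h. The difference at 6 h was -0.04 ± 0.30 (limma, adjusted p = 0.958), with a 95% interval from -0.74 to 0.66.

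The other potassium carriers named in the next sentences were chosen after their values were seen. OsHAK23 read 5.36 and 4.85 at 0 h, 6.43 and 5.94 at 6 h and 6.25 and 6.40 at 24 h, with every later array above both controls. Its differences were 1.08 ± 0.33 (limma, adjusted p = 0.141) and 1.22 ± 0.33 (adjusted p = 0.0978), or 0.51 and 0.60 with quantile normalization. OsHAK1, a high-affinity uptake transporter of rice roots, read 6.24 and 5.74 at 0 h, 6.61 and 6.29 at 6 h and 5.54 and 5.80 at 24 h. The 6 h arrays were thus the higher ones, by 0.46 ± 0.32 over 0 h (adjusted p = 0.475), but the difference was -0.06 with quantile normalization and -0.09 with cyclic loess. OsHAK20 read 3.21 and 2.13, then 1.36 and 1.68, then 1.63 and 2.20, a difference of -1.15 ± 0.42 at 6 h (adjusted p = 0.195). It lay below the array's lower quartile on 4 arrays, both of 6 h among them. The rest of the HAK genes had differences between -0.92 (OsHAK27) and 1.05 (OsHAK2) at 24 h.

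Over the 23 potassium carriers, both 6 h arrays lay above both controls for 11 genes and below them for 3. Over all probe sets 22.4% lay above and 23.3% below, and among those with 1 gene 33.8% and 14.8%. At 24 h the counts were 8 above and 3 below, beside 28.4% and 28% of all probe sets and 42.1% and 16.5% of those with 1 gene. The 24 h arrays lay above both 6 h arrays for 7 genes and below them for 6, beside 18.2% and 14.5% of all probe sets and 19.3% and 14.6% of those with 1 gene. The median difference was 0.23 at 6 h and 0.01 at 24 h, where all probe sets had -0.06 and -0.04 and the probe sets with 1 gene 0.19 and 0.26. The 6 h median turned to -0.07 both with quantile normalization and with cyclic loess. Adding a fold of at least 2 to an unadjusted p under 0.05 left 3 genes at 6 h, 4 at 24 h and 2 between the later times, OsHAK5 and OsHAK22; this rule took 12.4%, 14.5% and 1.19% of all probe sets.

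**Figure D3:**
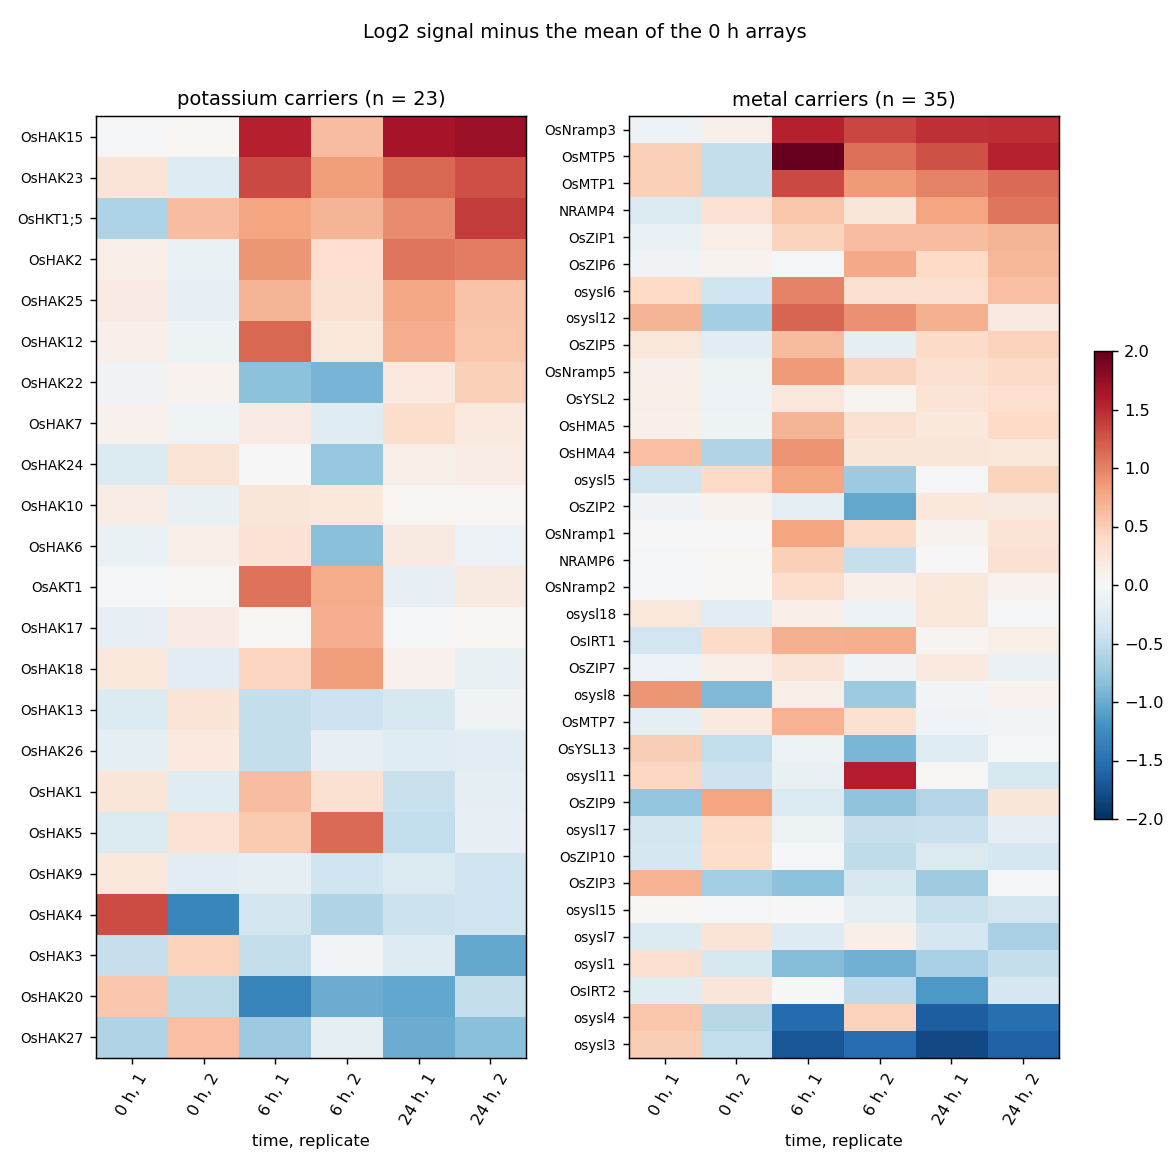
Each square is the log2 signal of 1 of the 58 transporter genes on 1 array minus that gene's mean at 0 h. Genes are in rows sorted from the highest to the lowest 24 h difference, potassium and metal carriers apart. The 6 arrays are in columns, and colours end at a difference of 2 in either direction. The squares of OsNramp3, OsMTP5 and OsHAK15 are raised on all 4 arrays after the yeast and those of osysl3 lowered on all 4, while OsHAK4 differs most between the 0 h arrays.

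Among the metal carriers, OsNramp3 (gene 9267339) rose at 24 h. In rice it is known as a manganese transporter of vascular tissue that directs the metal to young leaves. Its signals were 3.91 and 4.13 at 0 h, 5.58 and 5.36 at 6 h and 5.49 and 5.50 at 24 h. All 4 later arrays lay above both controls by more than 1, and the 6 h and 24 h arrays overlapped. At 24 h the difference was 1.47 ± 0.29, a 2.77-fold change with a 95% interval from 0.80 to 2.14 in log2 (limma, adjusted p = 0.0479). At 6 h it was 1.44 ± 0.29 (adjusted p = 0.0560), and the later times differed by 0.03 ± 0.29. Over the 15 alternative settings the 24 h difference ran from 0.77 to 1.58. Settings that changed only the test or the probe sets included, or left out a 6 h array, kept it at 1.47 by construction. Its direction could change only with a rescaling or without a 0 h or 24 h array, and there it stayed above 0. OsNramp3 passed in 5 of the settings. Among these, the mean of a gene's probe sets used the same values, as the gene has 1 probe set. Quantile normalization gave 0.92 (adjusted p = 0.198) and cyclic loess 0.77 (adjusted p = 0.262), so that the value depends on how the arrays were brought to a common spread. The call was lost without any single array, but each such fit leaves a time with 1 array. The 24 h difference was 1.36 and 1.58 without the first or second 0 h array. It was 1.47 without either 24 h array. Leaving out either 6 h array gives the same fit as only the 4 arrays compared. In that setting 0 of all 41770 probe sets passed at 24 h, so the loss there was not particular to OsNramp3.

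The other NRAMP genes did not pass. All 6 members had differences above 0 at 6 h and at 24 h, with medians of 0.49 and 0.26. At these times 46.0% and 47.5% of all probe sets were above 0. Of those with 1 gene it was 60.9% and 63.9%, with medians of 0.19 and 0.26. After quantile normalization 4 of the 6 members were above 0 at 6 h and 3 at 24 h, and after cyclic loess 4 and 2. OsNramp1 (gene 4342862), which carries iron and cadmium and is described as the NRAMP probe set with the highest mean, read 8.18 and 8.21 at 0 h, 8.98 and 8.58 at 6 h and 8.27 and 8.47 at 24 h. Its arrays at each later time lay above both controls, by 0.58 ± 0.30 (limma, adjusted p = 0.333) and 0.17 ± 0.30 (adjusted p = 0.773). The smaller 24 h value turned negative after quantile normalization and cyclic loess, at -0.07 and -0.12. OsNramp5, the main carrier of manganese and cadmium into rice roots, and NRAMP4 were picked after their values were seen. OsNramp5 read 7.39 and 7.19, then 8.14 and 7.74, then 7.62 and 7.67, with its 6 h arrays highest. NRAMP4 read 2.59 and 3.18, then 3.44 and 3.12, then 3.68 and 3.95, a 24 h difference of 0.93 ± 0.33 (adjusted p = 0.167).

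The MTP genes, whose products export zinc or manganese from the cytosol, were higher at 6 h on both arrays for all 3 members, as were 22.4% of all probe sets and 33.8% of those with 1 gene, and 0 passed. OsMTP5 (gene 4327371) read 4.35 and 3.39 at 0 h, 5.91 and 4.97 at 6 h and 5.14 and 5.41 at 24 h. All 4 later arrays lay above both controls, which were 0.96 apart. The differences were 1.57 ± 0.44 (limma, adjusted p = 0.114) and 1.40 ± 0.44 (adjusted p = 0.130). The 6 h difference was 2.05 without the first 0 h array (adjusted p = 0.0470) and 1.09 without the second (adjusted p = 0.222), each with 1 control array left. It was 1.10 without the first 6 h array and 2.04 without the second, and 1.22 and 1.0 with quantile normalization and cyclic loess. OsMTP1, a zinc carrier of the vacuole membrane picked after its values were seen, read 5.91 and 4.96, then 6.75 and 6.28, then 6.43 and 6.58. Its differences were 1.08 ± 0.39 and 1.07 ± 0.39 (adjusted p = 0.186 and 0.170) in the deposited values, and 0.54 and 0.47 with quantile normalization. OsMTP7 (gene 4325974) read 6.92 and 7.31 at 0 h, 7.80 and 7.43 at 6 h and 7.05 and 7.06 at 24 h, so that its 6 h arrays were highest and its 24 h arrays lay between the controls. For all 3 genes the 6 h difference stayed above 0 in each of the 4 scalings, with a family median of 0.54 both with quantile normalization and with cyclic loess.

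The YSL family held the lowest difference from 0 h of all 58 genes. None of its 14 members passed, and 8 had a difference below 0 at 6 h and 8 at 24 h, with medians of -0.08 and -0.14. The share above 0 was 42.9% at both times. Beside it stood 46.0% and 47.5% of all probe sets and 60.9% and 63.9% of those with 1 gene. The family's 6 h median was 0.04 when every array was centred on its median. osysl3 (gene 4338223) read 3.72 and 2.74 at 0 h, 1.52 and 1.72 at 6 h and 1.44 and 1.62 at 24 h. Every later array lay below both controls and under its array's lower quartile. The differences were -1.62 ± 0.38 (limma, adjusted p = 0.0769) and -1.70 ± 0.38 (adjusted p = 0.0599), and the 0 h arrays were 0.98 apart. At 24 h it passed in 3 of 14 alternatives and ranged over them from -2.19, without the second 0 h array, to -1.21, without the first.

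osysl15 (gene 9268232) encodes the root transporter that takes up ferric iron bound to deoxymugineic acid. It read 10.51 and 10.47 at 0 h, 10.49 and 10.32 at 6 h and 10.05 and 10.12 at 24 h. Both 24 h arrays were below all 4 others, by 0.41 ± 0.28 from 0 h (limma, adjusted p = 0.436). The 95% interval at 6 h ran from -0.74 to 0.56 and at 24 h from -1.06 to 0.25. OsYSL2, a phloem carrier of iron and manganese bound to nicotianamine and picked after its values were seen, read 7.89 and 7.66, then 8.0 and 7.82, then 8.04 and 8.11. Its 24 h arrays lay just above both controls, with a difference of 0.30 ± 0.29.

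The ferrous iron carriers OsIRT1 and OsIRT2 did not pass either. OsIRT1 (gene 4333669) read 5.47 and 6.24 at 0 h, 6.56 and 6.58 at 6 h and 5.90 and 5.96 at 24 h, with its highest arrays at 6 h. The difference was 0.72 ± 0.34 at 6 h (limma, adjusted p = 0.296) and 0.08 ± 0.34 at 24 h. At 6 h it was 0.18 under quantile normalization and under cyclic loess, and at 24 h its sign turned, to -0.54 and -0.53. OsIRT2 (gene 4333667) read 6.53 and 7.0, then 6.77 and 6.24, then 5.62 and 6.42. Its 24 h arrays lay below both controls, by 0.74 ± 0.39 (adjusted p = 0.306), and the difference was -1.26 and -1.31 under those scalings.

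Of the zinc carriers, OsZIP1 (gene 4326394) is described for the highest probe set mean and the smallest p of the ZIP family. It read 7.89 and 8.16 at 0 h, 8.47 and 8.65 at 6 h and 8.64 and 8.70 at 24 h. All 4 later arrays lay above both controls, by 0.53 ± 0.29 (limma, adjusted p = 0.359) and 0.65 ± 0.29 (adjusted p = 0.247). Another probe set of OsZIP1 read 6.80 and 6.55, then 6.64 and 6.63, then 6.91 and 6.93. Its 6 h arrays lay between the controls, with a difference of -0.04 ± 0.29, and its 24 h arrays above them, by 0.25 ± 0.29. OsZIP2, picked after its values were seen, read 7.59 and 7.74, then 7.49 and 6.63, then 7.88 and 7.84, below the controls at 6 h and above them at 24 h. The remaining 6 ZIP genes had differences between -0.57 and 0.53, and the name OsZIP3 is also a synonym of OsZIP7 in the gene table.

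OsHMA4 and OsHMA5 are copper pumps, and neither passed. OsHMA4 (gene 4328616), which stores copper in root vacuoles, read 6.85 and 5.64 at 0 h, 7.15 and 6.49 at 6 h and 6.48 and 6.47 at 24 h. The controls alone spanned 1.21 and enclosed both 24 h arrays. The differences were 0.57 ± 0.44 at 6 h (limma, adjusted p = 0.514) and 0.23 ± 0.44 at 24 h. The 95% interval at 6 h ran from -0.45 to 1.60, and quantile normalization gave 0.10 and -0.30. OsHMA5 (gene 4336625), which loads copper into the xylem and whose name is also a synonym of HMA9, read 5.41 and 5.22, then 5.99 and 5.63, then 5.52 and 5.71. Its later arrays lay above both controls, by 0.49 ± 0.30 and 0.30 ± 0.30 (limma, adjusted p = 0.411 and 0.593), but after quantile normalization and cyclic loess both differences were below 0.

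Over the 35 metal carriers, both 6 h arrays lay above both controls for 11 genes and below them for 3, and both 24 h arrays above for 13 and below for 6. Against the 6 h arrays, the 24 h arrays lay above for 4 genes and below for 8. These counts stand beside the same shares of all probe sets as those of the potassium carriers. The median difference of the metal carriers was 0.14 at 6 h and at 24 h in the deposited values. All probe sets had medians of -0.06 and -0.04, and those with 1 gene 0.19 and 0.26. With quantile normalization the median of the metal carriers was 0.03 at 6 h and -0.12 at 24 h, and with cyclic loess -0.0015 and -0.19. Across the 4 scalings compared, 27 of the 35 metal carriers and 19 of the 23 potassium carriers kept 1 sign at 6 h, and 19 and 14 did at 24 h. With a fold of at least 2 and an unadjusted p under 0.05, 4 metal carriers were called at 6 h, 5 at 24 h and 0 between the later times. This rule took 12.4%, 14.5% and 1.19% of all probe sets.

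Of all 58 genes, 14 had all 4 arrays after the yeast above both controls, 6 of them potassium and 8 metal carriers. This is 24.1%, where 18.2% of all probe sets had this pattern. The opposite pattern, all 4 below, was seen in osysl1 and osysl3, or 3.45% against 16.3% of all probe sets. OsHAK22 and OsZIP2 had their 6 h and 24 h arrays on opposite sides of the controls, again 3.45%, against 0.953%. The shares of these patterns among probe sets with 1 gene, from which all members come, were not counted. At 6 h and 24 h taken singly, 33.8% and 42.1% of those lay above the controls, beside 22.4% and 28.4% of all probe sets. Below the controls lay 14.8% and 16.5% of those, beside 23.3% and 28%. The comparisons with 0 h share the same control arrays, so the values at 6 h and 24 h are not independent of each other.

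Several of these genes sit next to each other in the RefSeq annotation of the assembly ASM3414082v1. There were 9 pairs of family members with at most 5 coding genes between them, and 7 of the pairs had 0 between. osysl3 and osysl4 are such neighbours. osysl4, picked after its values were seen, read 3.69 and 2.57 at 0 h, 1.59 and 3.58 at 6 h and 1.48 and 1.61 at 24 h, a 24 h difference of -1.58 ± 0.63 (limma, adjusted p = 0.205), beside -1.70 for osysl3. Its 6 h arrays were 1.99 apart, the widest gap of any of the genes at that time. On 3 arrays, both of 24 h among them, osysl4 lay below the array's lower quartile. OsYSL2 and osysl15, also with 0 genes between, had 24 h differences of opposite sign, 0.30 and -0.41, as had OsIRT1 and OsIRT2, with 0.08 and -0.74. OsNramp5 and OsNramp1 were higher together at 6 h, by 0.65 and 0.58. In all, 5 of the 9 pairs had differences of the same sign at 6 h and 3 at 24 h. The array's probe sequences were not used here, and whether close relatives share signal was not tested.

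Genes that work beside these carriers were counted as well, and those named were picked after their values were seen. Of 11 measured genes of iron and metal handling, 0 passed, with medians of 0.06 at 6 h and 0.08 at 24 h. NAS1, a nicotianamine synthase, read 10.89 and 10.74 at 0 h, 10.86 and 10.88 at 6 h and 10.66 and 10.63 at 24 h. TOM1, which releases deoxymugineic acid from roots, read 7.12 and 6.33, then 7.60 and 7.18, then 7.10 and 6.99. Its 6 h arrays were highest, by 0.66 over 0 h (limma, adjusted p = 0.357). Of 4 measured genes of potassium and sodium handling, 0 passed, with medians of 0.52 at 6 h and 0.63 at 24 h in the deposited values and 0.19 and 0.25 with quantile normalization. CIPK23, the kinase that activates OsAKT1 in rice, read 3.37 and 4.87 at 0 h, 5.44 and 5.07 at 6 h and 5.56 and 5.48 at 24 h. All 4 later arrays lay above both controls, which were themselves 1.50 apart, and the differences were 1.14 and 1.40 (adjusted p = 0.246 and 0.151). TPKb, a potassium channel of the vacuole membrane, read 2.86 and 3.66, then 2.72 and 2.42, then 2.92 and 3.23. Both of its 6 h arrays lay below both controls, by 0.69 (adjusted p = 0.336). The other 2 genes, A7 and GLR3.1, had differences of 0.24 and 0.80 at 6 h and 0.05 and 1.21 at 24 h.

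The spread between arrays set what could be detected. Replicate arrays differed by more than 1 for 10 of the 58 genes at 0 h, 4 at 6 h and 0 at 24 h, or 17.2%, 6.9% and 0%, beside 17.4%, 11.6% and 1.97% of all probe sets. The widest gap was that of OsHAK4, picked for it, which read 3.64 and 1.04 at 0 h. The standard error of a difference ran from 0.28 to 0.71 with a median of 0.35. In the deposited values, a 2-fold change in either direction lay outside the 95% interval for 10 genes at 6 h and 17 at 24 h. The latter were 9 potassium and 8 metal carriers, with OsAKT1, OsIRT1 and OsNramp1 among them. For the other genes the interval reached past a 2-fold change in at least 1 direction. Quantile normalization moved the 24 h differences of OsAKT1 and OsIRT1 to -0.48 and -0.54, and cyclic loess to -0.49 and -0.53. Intervals under those scalings were not examined here. On all 6 arrays, 33 of the 58 signals lay above the array's median and 7 below it.

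**Figure D4:**
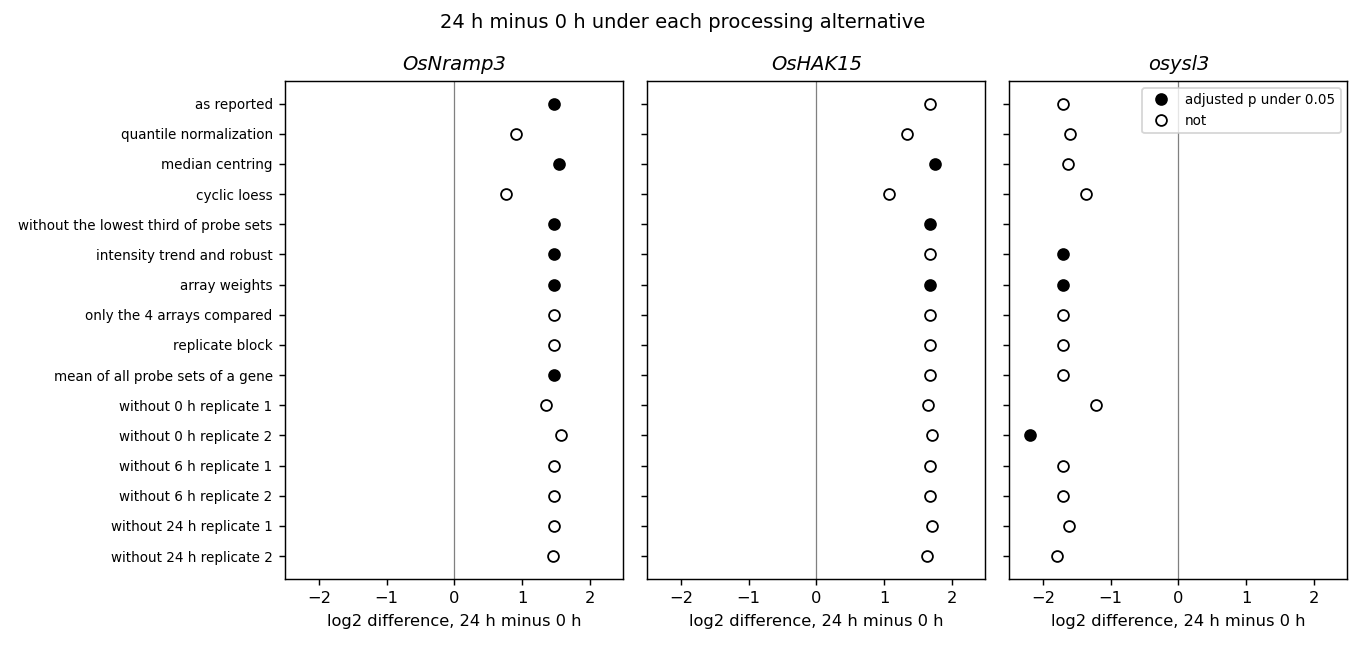
Log2 difference at 24 h against 0 h of OsNramp3, OsHAK15 and osysl3 in the deposited values and under each alternative setting, with filled points where the gene passed. OsNramp3 ran from 0.77 to 1.58, OsHAK15 from 1.07 to 1.75 and osysl3 from -2.19 to -1.21, and none of the 3 changed sign. Settings that changed only the test or the probe sets included, or left out a 6 h array, keep the difference by construction.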

How the data were processed

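Total RNA of 6 root samples was extracted with a plant and fungal RNA spin kit and labelled with the GeneChip WT Terminal Labeling kit, per the labels' protocols. The authors deposited a summarised signal for each probe set in log2 units, a base inferred from the range of the values since no source states it. Affymetrix Expression Console was used, per the submitters' processing notes. Its version and the summarisation, background, normalization and filter steps were not given in the sources used here.

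Gene names came from the platform annotation (15299 with 1 gene, 436 with several, 26035 with none). All 58 members were matched by gene number to the RefSeq table of ASM3414082v1, which supplied synonyms and the order of genes along chromosomes; none of its coordinates is printed. In 4 probe sets with several genes a family name occurred, and these were left out. Another probe set existed for 4 members.

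All 6 arrays and 41770 probe sets entered a single linear model, with a mean for each time, in limma 3.58.1 in R 4.3.3 (lmFit and eBayes, 3 residual and 5.08 prior degrees of freedom), after a test on simulated data. The Benjamini-Hochberg adjustment covered the whole table. Python 3.11.15 handled the annotation and plots.

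The members and the lists were chosen with earlier results of these data known. Arrays are printed for 5 marker genes, for genes past the threshold, and in each family for the gene with the highest mean signal and the one with the smallest p against 0 h; others are marked as picked later. Alternatives were quantile, median and cyclic loess scaling, leaving out the lowest 33.3% of probe sets, an intensity trend with robust estimation, array weights, only the 4 arrays compared, the replicate number as a block, the mean of a gene's probe sets, whole-number names only, an unadjusted p with a fold of at least 2, and leaving out each array. The labels do not say whether replicate numbers pair the arrays. Sequences were not used here.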

Additional observations from a re-analysis of the deposited data

Results flagged for a closer look

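OsHAK22 and OsZIP2 stood out because both of their 6 h arrays lay below, and both of their 24 h arrays above, both 0 h arrays. OsHAK22 differed by 1.21 between 24 h and 6 h and OsZIP2 by 0.80. Neither difference passed in limma's fit over all probe sets (adjusted p = 1 for each, unadjusted p = 0.00325 and 0.0526). The pattern occurred in 0.953% of all probe sets. After quantile normalization the OsZIP2 difference between 24 h and 0 h was -0.06 in place of 0.20, while that of OsHAK22 was 0.31 in place of 0.34.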

How the results depend on the processing

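At 24 h, the count of metal carriers that passed was 1 and became 0 after quantile normalization, after cyclic loess, with only the 4 arrays compared and with the replicate block. It became 2 (OsNramp3 and osysl3) with the intensity trend and with array weights, and 5 with an unadjusted p and a fold of at least 2. At 6 h it was 0 and became 1 (OsNramp3) after median centring and without the lowest 33.3% of probe sets, and 4 by p and fold. The potassium count at 24 h was 0 and became 1 (OsHAK15) after median centring, without the lowest 33.3% and with array weights, and 4 by p and fold. By that rule the potassium count became 3 at 6 h and 2 between the later times. The rule took 12.4% of all probe sets at 6 h, 14.5% at 24 h and 1.19% between the later times. Without 1 array in turn, metal counts ran from 0 to 2 at 6 h and 0 to 1 at 24 h, and potassium counts from 0 to 1 and 0 to 2. Without the first 0 h array the calls were OsMTP5 and osysl12 at 6 h and OsMTP1 at 24 h; without the second they were OsHAK4 and osysl3 at both times and OsHKT1;5 at 24 h. These fits keep 1 control array, assumed to vary like the arrays of the other times. The cause was not tested. Deviations of arrays with the same number correlated at 0.047 (0 h and 6 h), 0.033 (0 h and 24 h) and 0.155 (6 h and 24 h). Arrays of 1 number thus shared little deviation, which cannot show whether they were paired. With the replicate block 367 probe sets passed as higher and 17 as lower at 6 h, in place of 581 and 60, and 530 and 40 at 24 h, in place of 826 and 99. No count changed with the mean of a gene's probe sets or with whole-number names only. After quantile normalization, 78 probe sets passed as higher and 3 as lower at 6 h, and 24 and 0 at 24 h. Median centring moved the median difference of all probe sets at 6 h from -0.06 to 0.06. How far low signals lay above background is unknown.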
